A study of Mus musculus with 4 samples.

Results

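The genes examined here are 9 transcription factors that set the fate of helper T (Th) cells: Gata3, Tbx21, Rora, Ahr, Foxp3, Bcl6, Eomes, Runx1 and Runx3. The rule lists them by name, although the choice was made with earlier results of these data known, and they are 9 of the 18749 genes that could be named on the arrays. They were read by 12 probes. Rora, Runx1 and Runx3 had 2 probes each, and the other 6 genes had 1 probe each.

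A naive CD4 T cell that meets its antigen becomes an effector cell of one type, and each type depends on a master transcription factor. Gata3 directs the Th2 fate and opens the locus of the Th2 cytokines. T-bet, the product of Tbx21, directs the Th1 fate and IFN-γ production. Rora takes part in the Th17 fate, in which the ligand-activated receptor Ahr also takes part. Foxp3 maintains regulatory T (Treg) cells, and Bcl6 directs T follicular helper (Tfh) cells. Eomes, a relative of T-bet, serves cytotoxic and memory T cells, and the Runx factors act as partners of several of these factors, Runx3 mainly in Th1 and cytotoxic cells and Runx1 in Treg and Th17 cells. Bach2 is a repressor that binds DNA at AP-1-like elements and restrains effector differentiation.

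Messenger RNA was measured on 4 one-colour Agilent mouse arrays, 1 for each of 4 conditions. Primary naive CD4 T cells (CD44 low, CD62L high, CD25 negative) came from the spleen of C57BL/6J mice that the labels give as female, and were either Bach2 WT or Bach2 KO, the KO being Bach2 flox/flox crossed with CD4-Cre transgenic mice. KO stands here for the arrays so labelled. All cells first received plate-bound antibody to TCR-β (3 μg/ml) together with antibody to CD28 (1 μg/ml) over 2 days and then stayed in culture for 3 more, with IL-2 at 2.5 ng/ml as the only cytokine named. They were collected either at that point or after re-stimulation for 4 h with immobilized anti-TCR-β mAb and no added IL-2. The Cre transgene is driven by regulatory sequence of the Cd4 gene, so the deletion is not limited to one Th type and also reaches CD8 T cells. The labels give no age and do not say how many mice entered an array.

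There was 1 array per condition, so no difference below has a replicate check and none was tested. A level is a probe's log2 signal after the 75th percentile over all probes of that array is subtracted, and a difference is one level minus another. A gene is counted as higher or lower where its difference passes 2-fold (1 on the log2 scale), which is a rule of size. Other measures of precision were at hand. The median SD between probes of one gene, over 3852 genes with 2 or more probes, was 0.09 for the genotype difference before re-stimulation, 0.11 for that after it, 0.15 for re-stimulation in WT cells and 0.14 in KO cells. The scanner software's own error was about 10% of the signal of a bright probe, or 0.20 on a log2 difference. The Ahr probe, printed at 10 spots, gave the spread between spots. These cover the reading of an array and not the spread between mice or cultures. A comparison uses each gene with a signal well above background (by the scanner software's flag) on 1 or both of its arrays; a dimmer value is then raised to the lowest level that was well above background on its array, and the difference becomes a bound.

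On each array 53.6% to 54.0% of probes had a signal well above background, and 10810 genes had one on all 4, among them 8 of the 9 factors. All 12 markers of CD4 T cells were well above background on all 4 arrays and none differed past 2-fold in any comparison. Certain markers went against the labels or belonged to other cells. The probe for Bach2 did not check the genotype, with differences of -0.15 before and -0.28 after re-stimulation. Both KO arrays carried the Y-linked transcripts Eif2s3y, Ddx3y and Kdm5d, which were not well above background on either WT array, and Xist, the transcript of the inactive X chromosome, was lower by 1.04 and by 1.19 but stayed well above background. Sex and genotype therefore cannot be told apart in what follows, and directions are between the arrays as labelled. Of 8 B cell markers 2 or 3 were well above background on an array, with Pax5 and Ms4a1 on none, and of 3 markers of NKT and γδ T cells 0 or 1. Of 8 myeloid markers 3 in WT and 4 in KO cells were well above background before re-stimulation and 1 and 3 after it, with Lyz2 and Itgam on none. Their summed signal, in units of the array's 75th percentile, was 0.154 to 0.499 on the WT arrays and 0.688 to 1.24 on the KO arrays. All 5 that could be compared before re-stimulation and all 3 after it had values above 0, 3 and 2 of them past 2-fold. Itgax was at least 4.37-fold and 3.40-fold higher, Adgre1 2.23-fold and 2.95-fold, and Fcgr3 at least 2.41-fold before re-stimulation. The part of myeloid cells in the values below was not tested. The lists of mast cells and basophils, NK cells and CD8 T cells are given beside the factors they concern. As the arrays read bulk RNA, fewer cells of a type and less RNA per cell cannot be told apart.

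RefSeq promoter windows (GRCm38.p6, 250 bases before to 50 after the start of a gene) were on hand for 8 of the 9 factors, in 12 windows; Ahr had none. The AP-1 element TGAGTCA, searched on both strands, was in 0 of these 12 windows, against 5.20% of all 32851 windows. An interferon-response-like element, made of GAAA, 2 bases of any kind and GAAA again, was searched on both strands after the levels were seen, because the genes whose levels lay nearest to those of Eomes are interferon-induced. It was in 1 of the 12 windows, that of Eomes, against 3.44% of all windows. TTCNNNGAA, the element of STAT factors, searched at the same time, was in 3 of the 12, against 8.30%: both windows of Bcl6 and 1 of the 2 of Foxp3. These are matches of letters, not sites of binding. 3 windows are shown, those of Gata3 and Eomes because their genotype differences before re-stimulation were among the largest, and that of Irgm1 because it was the gene nearest to Eomes. Capitals mark the interferon-response-like element. It began 154 bases before the start of Eomes and, in a pair that shares bases, 30 and 24 bases before the start of Irgm1. The windows are Gata3 at chr2:9878551-9878850 on the minus strand, Eomes at chr9:118477939-118478238 on the plus strand and Irgm1 at chr11:48871371-48871670 on the minus strand.
Gata3: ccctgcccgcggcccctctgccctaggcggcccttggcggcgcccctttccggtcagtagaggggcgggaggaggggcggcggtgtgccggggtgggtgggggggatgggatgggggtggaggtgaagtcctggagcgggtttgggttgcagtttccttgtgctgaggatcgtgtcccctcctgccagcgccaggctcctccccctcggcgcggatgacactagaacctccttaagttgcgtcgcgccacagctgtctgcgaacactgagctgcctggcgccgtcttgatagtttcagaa
Eomes: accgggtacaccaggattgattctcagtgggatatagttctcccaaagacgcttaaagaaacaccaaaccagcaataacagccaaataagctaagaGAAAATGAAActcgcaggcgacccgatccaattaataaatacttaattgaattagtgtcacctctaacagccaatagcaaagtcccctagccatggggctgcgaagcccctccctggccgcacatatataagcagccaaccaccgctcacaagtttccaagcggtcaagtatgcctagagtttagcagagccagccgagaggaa
Irgm1: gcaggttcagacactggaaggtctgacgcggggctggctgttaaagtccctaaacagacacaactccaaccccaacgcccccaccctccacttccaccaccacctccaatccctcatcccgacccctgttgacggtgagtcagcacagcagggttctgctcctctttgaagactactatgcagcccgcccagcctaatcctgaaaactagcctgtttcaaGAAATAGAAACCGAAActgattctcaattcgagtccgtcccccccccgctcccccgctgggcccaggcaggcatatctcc
The Gata3 window held none of these elements. The Irgm1 window also held an AP-1 element, beginning 115 bases before the start. The windows of Cmpk2 and Xaf1, the next nearest genes to Eomes, held no interferon-response-like element. That of Xaf1 held an AP-1 element, beginning 38 bases before the start, and that of Cmpk2 held none.

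**Figure D1:**
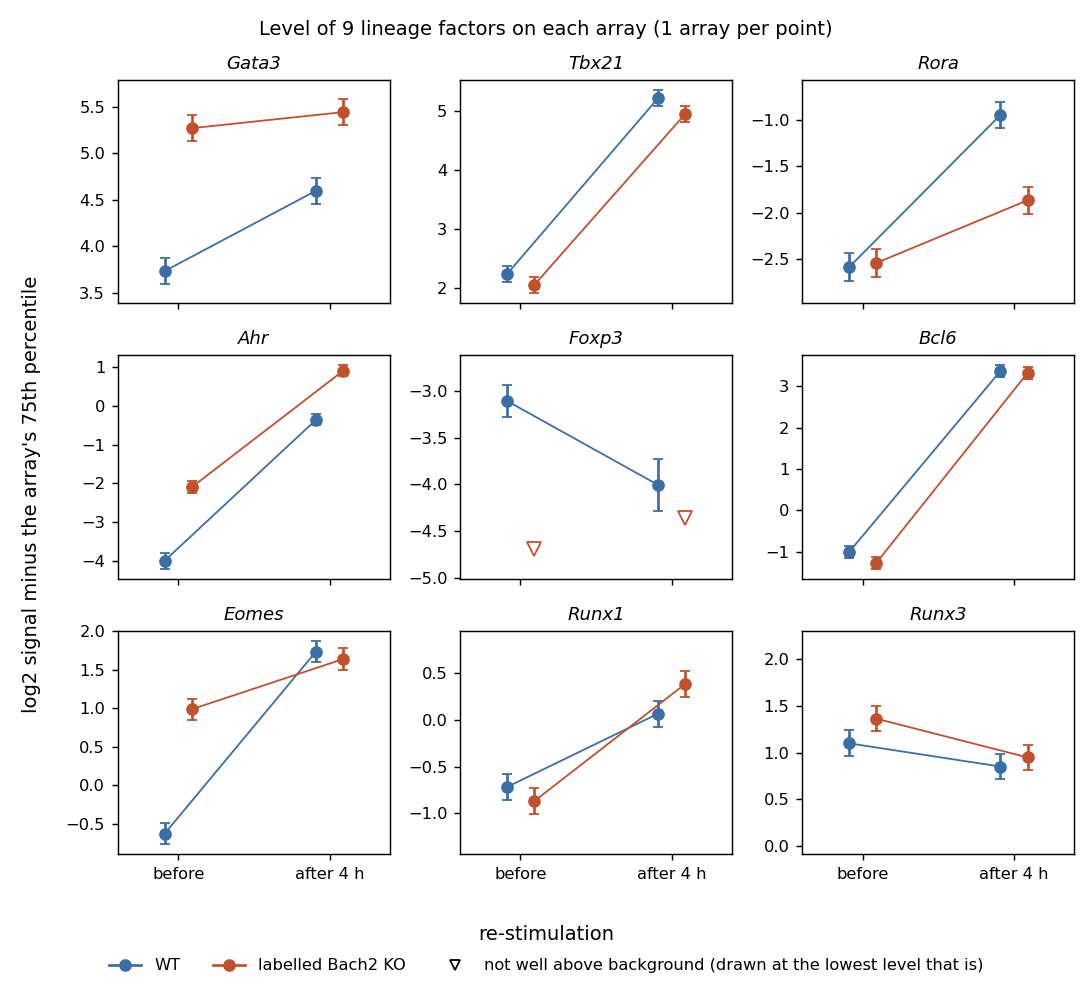
Level of each of the 9 factors on each array, as log2 signal minus the array's 75th percentile (y axis; each panel has its own range), before and after 4 h of re-stimulation (x axis), for WT (blue) and arrays labelled Bach2 KO (red). Each point is 1 array, bars are the scanner software's error, and open triangles stand at the lowest level well above background for Foxp3 on the KO arrays, where its own signal was not. Gata3 and Ahr were higher on both KO arrays, Rora was level with WT before re-stimulation and lower after it, and Eomes was higher on the KO array before re-stimulation and level with WT after it.

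Before re-stimulation, 3 of the 9 factors were higher past 2-fold on the KO array, Gata3, Ahr and Eomes, and 1, Foxp3, was lower. Among all 12136 genes measured in that comparison, 8.08% were past 2-fold, 5.26% higher and 2.82% lower. The median difference of the 9 factors was 0.05, and that of all genes -0.0033. After re-stimulation 1 of the 9, Ahr, was past 2-fold, against 9.02% of 12348 genes, 5.17% of them higher. The median difference of the factors was then -0.04, against 0.02 for all genes. The 2 genotype comparisons share no array.

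**Figure D2:**
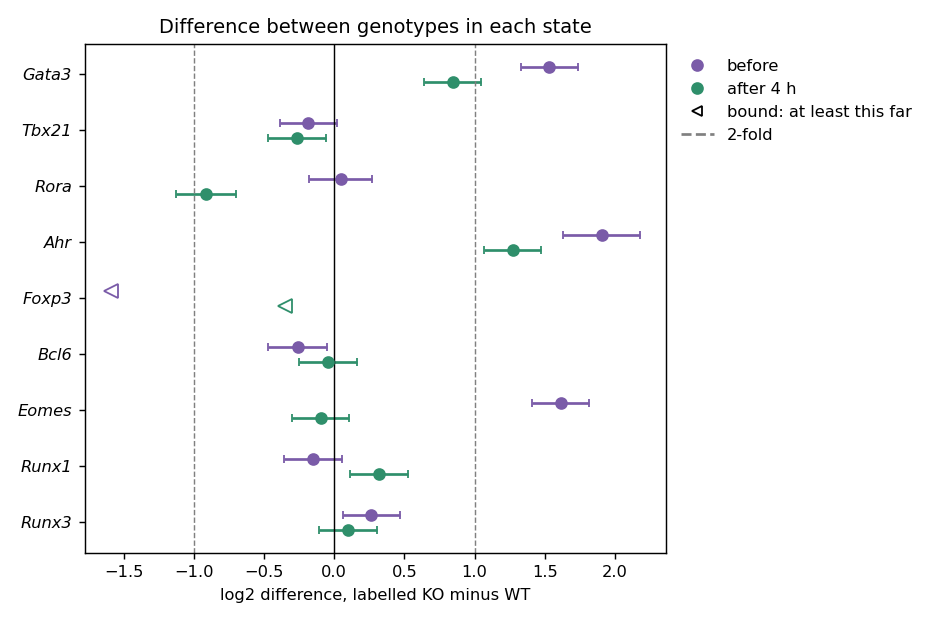
Difference between genotypes, labelled KO minus WT on the log2 scale (x axis), for each factor (y axis), before re-stimulation (purple) and after it (green); bars are the scanner software's error and dashed lines mark 2-fold. Gata3, Ahr and Eomes lay to the right of the 2-fold line before re-stimulation and Ahr alone after it; the open triangles of Foxp3 are bounds.

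Gata3 (transcript NM_008091), the master factor of Th2 cells, was higher on both KO arrays. Its level was 3.74 on the WT array and 5.27 on the KO array before re-stimulation, then 4.60 and 5.44 after it. Both KO levels lay above both WT levels. The genotype difference was 1.53 ± 0.20 (scanner error) before re-stimulation, or 2.89-fold, and 0.84 ± 0.20, or 1.79-fold, after it. 2.62% of genes were as high or higher in the first comparison and 6.63% in the second. The re-stimulation difference was 0.86 in WT and 0.17 in KO cells, neither past 2-fold. Scaled to the T cell gene Cd3e, the WT difference was 1.16, past 2-fold.

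Most genes associated with Gata3 stood higher on the KO arrays. This list and those below were chosen with earlier results of these data known, so their counts are descriptions. Among all genes, 5.26% were higher past 2-fold before re-stimulation and 5.17% after it, and 2.82% and 3.85% were lower. Before re-stimulation 7 of the 11 measured genes of this list were higher past 2-fold and 0 were lower, with a list median of 2.16. After re-stimulation 8 of 12 were higher and 0 lower, with a median of 2.61. Il24, an interleukin of the IL-10 family, differed by 5.23 and 5.50. Il1rl1, the receptor for IL-33, was 26.1-fold higher before re-stimulation and 2.83-fold after it. Il4, the cytokine that both induces Gata3 and is made by Th2 cells, differed by 2.81 and 3.59. Il5, which supports eosinophils, was at least 21.8-fold higher before re-stimulation and differed by 6.86 after it. Its WT signal after re-stimulation, 16.8, lay close to the lowest well above background on that array, 14.5. Epas1, which encodes HIF-2α, differed by 2.24 and 3.33. Mast cells and basophils make several of the same cytokines and depend on Gata2. Of 12 of their markers on the array, 5 in WT and 9 in KO cells were well above background before re-stimulation, then 4 and 9 after it. All 9 that could be compared had values above 0 in both comparisons, 5 of them past 2-fold before and 6 after. Their summed signal, in units of the array's 75th percentile, was 6.61 to 7.80 on the WT arrays and 14.1 to 17.4 on the KO arrays. Il3ra and Fcer1g were the brightest on every array, and the sum rests largely on them. Cpa3 and Fcer1a were not well above background on either WT array. Cpa3 was at least 22.5-fold and 11.9-fold higher on the KO arrays, Fcer1a at least 4.94-fold and 4.68-fold, and Prss34 8.96-fold and at least 13.8-fold. Mcpt8, a basophil protease, was at least 20.5-fold higher before re-stimulation and at least 20.3-fold after it, while on no array were Ms4a2, Mcpt4 and Tpsb2 well above background. Gata2 was at least 1.72-fold and 1.70-fold higher. The part of these cells in the Gata3 values was not tested.

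Tbx21 (transcript NM_019507), which encodes the Th1 factor T-bet, was separated by re-stimulation and not by genotype. Its level was 2.23 on the WT array and 2.05 on the KO array before re-stimulation, then 5.21 and 4.95 after it. Both levels after re-stimulation lay above both levels before it. Re-stimulation raised Tbx21 by 2.98, or 7.90-fold, in WT cells and by 2.90, or 7.46-fold, in KO cells. The genotype differences were -0.18 ± 0.20 and -0.27 ± 0.20 (scanner error), within about 1 scanner error before re-stimulation and somewhat beyond it after. On the same arrays the genotype difference of Gata3 exceeded that of Tbx21 by 1.72 before re-stimulation and by 1.11 after it, values that a common scaling factor of an array cannot change.

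Of 12 measured genes associated with T-bet, 5 were higher past 2-fold on the KO array before re-stimulation and 1, Twist1, was lower, with a median of 0.62. Ccl4 and Ccl3, inflammatory chemokines, were higher, Ccl4 by 2.89 and Ccl3 at least 7.04-fold. Ifng, the cytokine of Th1 cells, differed by 1.75 before re-stimulation and by -0.09 after it. Hlx, a homeobox partner of T-bet, was not well above background on either WT array and was at least 6.30-fold higher on the KO array before re-stimulation and at least 10.9-fold after it. Twist1, a factor induced by T-bet, was well above background on both WT arrays and on neither KO array, at least 2.25-fold lower before re-stimulation. After re-stimulation 2 of 12 were higher, Hlx and the chemokine Ccl5 with 1.10, and 1 was lower, the IL-18 receptor chain Il18r1 with -1.04, and the median was -0.10. Twist1 is named here because it was the only one lower, which was seen in its values.

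Eomes (transcript NM_010136) was higher on the KO array before re-stimulation only. Its level was -0.63 on the WT array and 0.99 on the KO array before re-stimulation, then 1.73 and 1.64 after it. The WT array before re-stimulation was the lowest of the 4, and the only one with a level under 0. The genotype difference was 1.61 ± 0.20 (scanner error), or 3.06-fold, before re-stimulation and -0.10 ± 0.20 after it. With re-stimulation Eomes was 5.13-fold higher in WT cells, a difference of 2.36, and the difference in KO cells was 0.65. The genotype difference after re-stimulation minus that before it was -1.71, with a scanner error of 0.29, and 1.11% of 10810 genes had a change as large in size. In all, 4.82% of those genes passed 2-fold in this measure, 1.82% with a higher and 3.00% with a lower difference after re-stimulation, and Eomes was the only factor past it among the 8 measured on all 4 arrays.

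Among the cytotoxic genes associated with Eomes and Runx3, 7 of 11 measured were higher past 2-fold on the KO array before re-stimulation and 0 lower, and 7 of 13 were higher and 1 lower after it. The list medians were 1.15 and 1.10. Itgae, the integrin chain CD103, differed by 4.10 and 3.79. Klrg1, a receptor of terminal effector cells, differed by 3.54 and 3.45. Its WT signals, 17.0 and 19.0, lay close to the lowest well above background on those arrays, 15.1 and 14.5. Gzma, which encodes granzyme A, differed by 3.26 and 2.77, and Prf1, which encodes perforin, by 2.32 and 1.66. The 1 lower gene was Cd160, a receptor of cytotoxic cells, which differed by 1.14 before re-stimulation and by -1.95 after it. Eomes and these genes are also used by NK and CD8 T cells. Of 7 markers on the NK cell and innate lymphoid list, which includes Eomes, 3 were well above background on each WT array and 4 on each KO array, with summed scaled signals of 1.90 to 4.44 and of 4.81 to 5.81. Eomes is among those counted and summed, so these figures are in part its own values. The others were Klrb1c and Tyrobp on the WT arrays, and Klra8 besides on the KO arrays. Klrb1c, an NK cell receptor, had a signal well above background on each of the 4 arrays, with differences of 0.32 and -0.21. Klra8 was well above background on the KO arrays alone, at least 1.45-fold and 1.47-fold above WT. On no array were Ncr1, Klra4 and Klri2 well above background, and Tyrobp, a signalling adaptor also of myeloid cells, differed by 1.92 and 1.87. Cd8a was well above background only on the KO array after re-stimulation, at least 3.85-fold above WT. The part of such cells in the Eomes values was not tested.

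The genes whose levels over the 4 arrays lay nearest to those of Eomes were named by the Euclidean distance between levels after each gene's own mean was subtracted, over 10809 genes. With 4 points such likeness is a description. They were Irgm1, at a distance of 0.09, Cmpk2 at 0.29 and Xaf1 at 0.31. All 3 are known as interferon-induced genes. Irgm1, an immunity-related GTPase, differed between genotypes by 1.72 before re-stimulation and by -0.12 after it, Cmpk2 by 1.98 and 0.07, and Xaf1 by 1.68 and 0.32. Nearest to Gata3 were Cox6a2 at 0.13, Selenow at 0.22 and Tiam1 at 0.27. Nearest to Tbx21 were Ubash3b at 0.16, Il1rap at 0.20 and Nfkbie, an inhibitor of NF-κB, at 0.22.

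**Figure D3:**
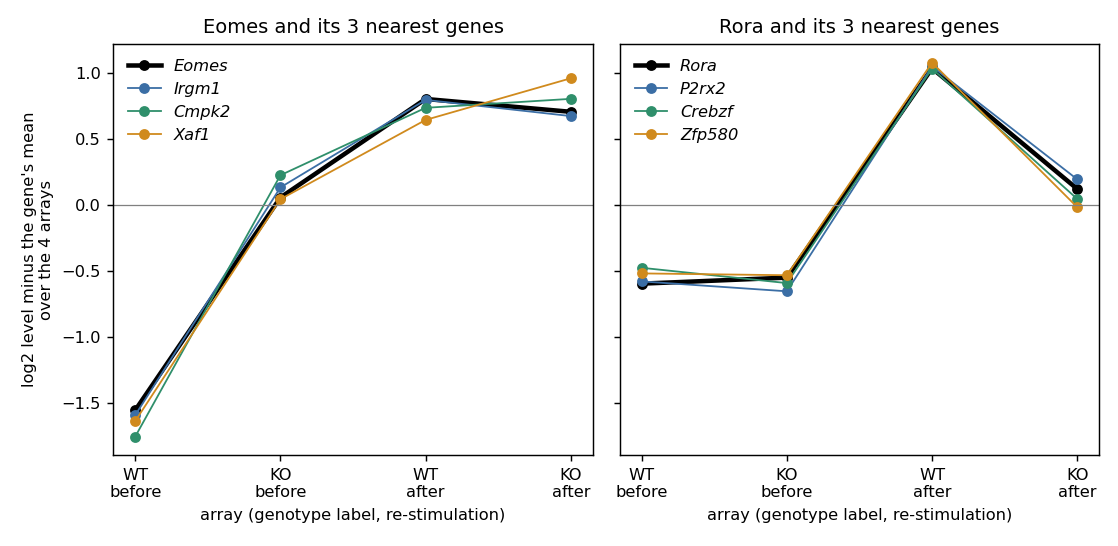
Level of Eomes (left) and Rora (right, black lines) and of the 3 genes nearest to each, on each of the 4 arrays (x axis), as log2 level minus the gene's mean over the arrays (y axis). The Eomes group was lowest on the WT array before re-stimulation, and the Rora group was highest on the WT array after re-stimulation.

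Rora (transcript NM_013646), a Th17 factor of the nuclear receptor family, was lower on the KO array after re-stimulation, short of 2-fold. By the brighter probe its level was -2.58 on the WT array and -2.54 on the KO array before re-stimulation, then -0.95 and -1.87 after it. The WT array after re-stimulation was the highest of the 4. The genotype difference was 0.05 ± 0.22 before re-stimulation and -0.91 ± 0.21 (scanner error), or 1.88-fold lower, after it. The other probe gave -0.01 and -0.97. The re-stimulation difference was 1.63 in WT cells and 0.67 in KO cells, and 1.68 and 0.72 on the other probe. With a background model that adds an offset the WT value was 0.99, just short of 2-fold. The genotype difference after re-stimulation minus that before it was -0.96 on either probe. The genes nearest to Rora were P2rx2 at a distance of 0.13, Crebzf at 0.15 and Zfp580 at 0.16.

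Of the 8 genes associated with Rora and the Th17 type, 3 could be compared before re-stimulation and 0 were past 2-fold. Il17f was at least 1.31-fold lower on the KO array, Il23r at least 1.56-fold higher, and Ccr6 differed by -0.49. After re-stimulation 4 of 7 were higher past 2-fold, with a median of 2.10. The cytokine Il21 differed by 4.15 and Il22 by 3.61. The WT signal of Il22, 17.3, lay close to the lowest well above background on that array, 14.5. The IL-1 receptor Il1r1 was at least 14.1-fold higher and Il17a, the defining cytokine of Th17 cells, at least 4.29-fold. The chemokine Ccl20, named as the only one lower, differed by -1.33.

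Ahr (transcript NM_013464), a receptor for small molecules that serves Th17 and IL-22-producing cells, was higher on both KO arrays and after re-stimulation. Its level was -4.00 on the WT array and -2.10 on the KO array before re-stimulation, then -0.36 and 0.92 after it. Neighbouring levels lay further apart than the SD between spots. The SD between 9 or 10 spots was 0.27 on the WT array before re-stimulation and between 0.04 and 0.08 on the others. The genotype difference was 1.91 ± 0.27 (scanner error), or 3.75-fold, before re-stimulation and 1.27 ± 0.20, or 2.41-fold, after it. The WT signal before re-stimulation, 27.2, lay close to the lowest signal well above background on that array, 15.1, and with a background model that adds an offset the first difference was 0.78. Re-stimulation raised Ahr by 3.65, or 12.5-fold, in WT cells and by 3.01, or 8.06-fold, in KO cells. The gene nearest to Ahr was Runx2, another Runx factor, at 0.35, followed by Apol9b at 0.37 and Gpr174 at 0.42.

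Among genes associated with Ahr, 2 of 5 measured were higher past 2-fold on the KO array before re-stimulation and 4 of 7 after it, with 0 lower in either. The medians were 0.55 and 2.48. Il10, an anti-inflammatory cytokine, was at least 25.1-fold higher before re-stimulation and differed by 5.85 after it. Ahrr, the repressor that Ahr itself induces, differed by 1.91 before re-stimulation and was at least 6.21-fold higher after it. With re-stimulation, however, Ahrr was lower where Ahr was higher, at least 2.77-fold in WT cells and 1.68-fold in KO cells. Cyp1b1, an enzyme of the Ahr response, was well above background only on the KO array after re-stimulation, at least 5.57-fold above WT. Cyp1a1 and Cyp1a2, the enzymes best known as Ahr targets, were well above background on none of the 4 arrays. Il22 stands in the Th17 list too and is counted in both.

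Foxp3 (transcript NM_054039), the Treg factor, was well above background on the WT arrays only. Its level was -3.10 before re-stimulation and -4.01 after it in WT cells. On the KO arrays its probe was not well above background in either state, and it was at least 3.01-fold lower than WT before re-stimulation and at least 1.27-fold lower after it. With a background model that adds an offset the first difference was -0.48, short of 2-fold. In WT cells its level was lower by 0.90 ± 0.36 (scanner error) after re-stimulation, short of 2-fold. That difference passed 2-fold when the arrays were scaled to the median, -1.20, and under quantile normalization, -1.13. The WT signals, 50.8 and 19.5, were dim, with 15.1 and 14.5 the lowest well above background on those arrays. The naive cells had been selected as CD25 negative, and CD25 is a marker of most Treg cells. Foxp3 lies on the X chromosome and the sex markers differed between the arrays of the 2 genotypes: 1 of 5, Xist, was well above background on the WT arrays and 4 of 5 on the KO arrays, with Eif2s3y at least 78.8-fold and 58.0-fold higher. Sex and the Bach2 label cannot be told apart for this gene.

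The 13 measured genes associated with Foxp3 and Treg cells were all well above background on every array and went both ways. Before re-stimulation 2 were higher past 2-fold and 2 lower, with a median of 0.28. Itgae, which is also on the cytotoxic list, was the largest of those higher, followed by Entpd1, the ectonucleotidase CD39, with 1.23. Nt5e, the ectonucleotidase CD73, was lower with -2.19, and Ctla4, an inhibitory receptor, with -1.38. After re-stimulation Itgae was higher and Nt5e lower with -2.67, the median was 0.24, and Ctla4 had a difference of 0.51.

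Bcl6 (transcript NM_009744), the Tfh factor and a repressor, had the largest change with re-stimulation of the 9 and did not differ by genotype past 2-fold. Its level was -1.01 on the WT array and -1.27 on the KO array before re-stimulation, then 3.37 and 3.33 after it. Both re-stimulated arrays lay far above the others. Re-stimulation raised Bcl6 by 4.38, or 20.9-fold, in WT cells and by 4.60, or 24.2-fold, in KO cells, with a scanner error of 0.21. 0.912% of genes had a difference as high or higher in WT cells and 0.597% in KO cells. The genotype differences were -0.26 ± 0.21 and -0.04 ± 0.20. The nearest genes were Slc9b2 at 0.20, Gch1 at 0.34 and Trib1 at 0.35.

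Genes of the Tfh type did not move as 1 group. Before re-stimulation 1 of 10 measured was higher past 2-fold on the KO array and 2 were lower, and after it 2 of 11 were higher and 4 lower, with medians of -0.09 and -0.29. Icos, a costimulatory receptor, differed by 2.21 and 1.09. Il21, given above and counted in both lists, was the other gene higher after re-stimulation. Btla, an inhibitory receptor, differed by -2.76 and -1.87 and Cd200 by -1.96 and -1.18. Sh2d1a, the adaptor SAP, differed by -0.23 before re-stimulation and by -1.42 after it. Genes that Bcl6 is known to repress likewise went both ways, with 4 higher and 1 lower of 9 before re-stimulation and 3 higher and 2 lower after it. Prdm1, which encodes Blimp-1, the antagonist of Bcl6, differed by 1.31 and 1.98. The IL-7 receptor gene Il7r differed by 3.08 and 1.88 and Id2, an inhibitor of E proteins, by 1.74 and 1.43. Ccr7, a receptor for lymph node homing, was lower with -2.24 and -1.91. S1pr1, which serves exit from lymph nodes, had a difference of -0.83 before re-stimulation, short of 2-fold, and was lower with -2.97 after it.

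Runx1 and Runx3 varied least. Runx3 (transcript NM_019732) lay at 1.10 in WT and 1.36 in KO cells before re-stimulation, then at 0.85 and 0.95, a span of 0.51. On its brighter and dimmer probe the genotype difference was 0.26 and 0.15 in the resting state and 0.10 and 0.19 in the re-stimulated one, and re-stimulation gave -0.25 and -0.37 in WT cells and -0.42 and -0.33 in KO cells. No comparison of Runx3 passed 2-fold on either probe.

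Runx1 was read by probes for different transcripts that did not give the same values. The brighter one (NM_009821) had levels of -0.72 and -0.87 before re-stimulation, in WT and KO order, and 0.07 and 0.39 after it. Its genotype differences were -0.15 ± 0.21 and 0.32 ± 0.21 (scanner error), and its re-stimulation differences were 0.79 in WT cells and 1.26, or 2.40-fold, in KO cells. The other probe (NM_001111023) gave genotype differences of 0.02 and 0.04 and re-stimulation differences of 0.64 and 0.65. The call past 2-fold in KO cells was lost on that probe and on the mean of both, 0.96. On the brighter probe it was lost by a small margin when the arrays were scaled to the median, 0.996, and with a background model that adds an offset, 0.995. The genes nearest to the brighter probe were Zfp330 at 0.04, Ahcyl1 at 0.06 and 1810055G02Rik at 0.10. Cbfb, the partner that all Runx factors bind, was bright, with differences between -0.34 and 0.14 in the 4 comparisons; it is named after its values were seen.

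With re-stimulation in WT cells, 5 of the 9 factors were higher past 2-fold, Tbx21, Rora, Ahr, Bcl6 and Eomes, and 0 were lower, against 26.7% of 12388 genes past it, 13.2% of them higher. The median of the 9 was 1.63, against -0.0052 for all genes. In KO cells 4 of the 8 that could be compared were higher, Tbx21, Ahr, Bcl6 and Runx1, and 0 lower, against 25.3% of 12395 genes, 12.4% of them higher. The median of the 8 was 0.97, against 0.0087. The re-stimulation difference in KO cells minus that in WT cells was -0.69 for Gata3, -0.96 for Rora, -0.63 for Ahr and -1.71 for Eomes. It was -0.08 for Tbx21, -0.17 for Runx3, 0.22 for Bcl6 and 0.47 for Runx1. Each re-stimulation comparison shares 1 array with each genotype comparison, so these values follow from those given above and are not further evidence.

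**Figure D4:**
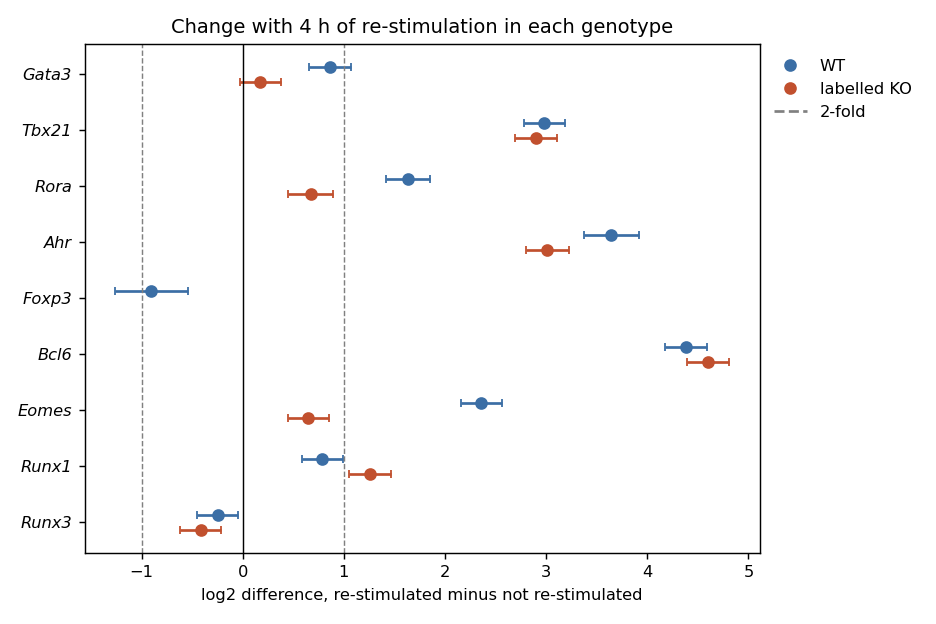
Change with 4 h of re-stimulation, re-stimulated minus not re-stimulated on the log2 scale (x axis), for each factor (y axis), in WT (blue) and in cells labelled KO (red); bars are the scanner software's error and dashed lines mark 2-fold. Bcl6, Ahr and Tbx21 lay beyond 2-fold in both, Rora and Eomes in WT alone, and Foxp3 has no value in KO cells because it was not well above background there.

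The wider list of 36 regulators that act with these factors was mixed. Of 34 measured before re-stimulation, 11 were higher past 2-fold on the KO array and 4 lower, with a median of 0.47, and of 35 after it, 5 were higher and 5 lower, with a median of 0.20. Maf, a factor that drives Il4, Il10 and Il21, differed by 4.65 before re-stimulation and by 4.10 after it. Its levels were -2.93 and -1.34 on the WT arrays and 1.72 and 2.76 on the KO arrays, so that both KO levels lay above both WT levels. Hlx and Ahrr, given above, were also among the largest. Tox, a factor of T cell development and Tfh cells, differed by -1.99 before re-stimulation and was at least 2.23-fold lower after it. Tcf7, which encodes the naive and memory factor TCF-1, differed by -1.57 and -1.99.

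**Figure D5:**
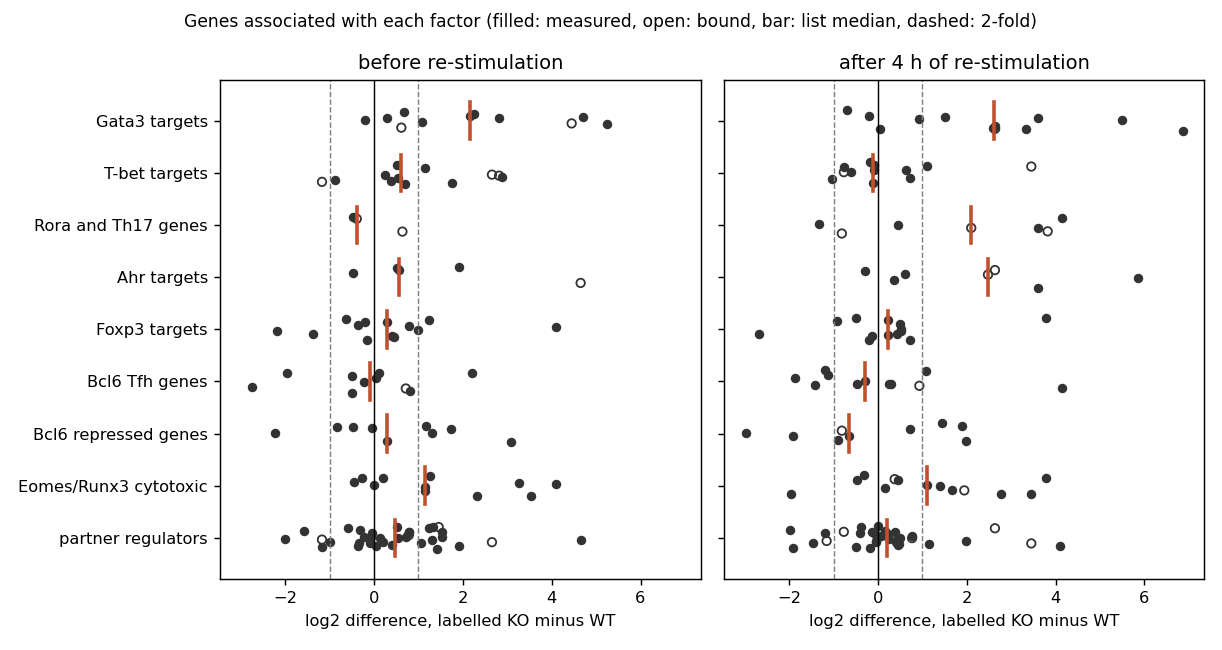
Difference between genotypes, labelled KO minus WT on the log2 scale (x axis), of the genes on each list (y axis), before (left) and after (right) re-stimulation. Filled points are measured differences, open points are bounds, red bars are list medians and dashed lines mark 2-fold; the median of the Gata3 list was 2.16 before and 2.61 after re-stimulation, and those of the T-bet list 0.62 and -0.10.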

How the data were processed

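RNA from 4 samples, 1 per condition, was hybridized to Agilent mouse arrays (Cy3), all on 1 slide read in 1 scan. The labels do not say whether the samples of a genotype came from the same culture. The authors deposited Feature Extraction 10.7.3.1 output, an intensity per spot with background subtracted and not scaled between arrays, with its error, and a deposited table with log2 values of the same arrays. Set against the scanner output, the table holds log2 intensities less each array's 75th percentile: between 41001 and 41026 of 41173 probes were within 0.01. The medians of its columns lay between -4.09 and -3.77. The table was used as an alternative only. The study's methods as given here describe no array processing.

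Spots marked uneven or as outliers (107 to 120 per array) were left out, log2 values of a probe's spots were averaged, and the 75th percentile of the whole array was subtracted. No spot was saturated. Of 41173 probes, 27479 (66.7%) were named by RefSeq accession from a GRCm38.p6 table, used for names only because the arrays follow mm9. A gene was read from its brightest probe. Members and lists were chosen with earlier results of these data known. Named from lists are genes past 2-fold in a genotype comparison, at most the 4 largest of a list in each, and all genes of a list with 3 or fewer measured; the 3 nearest genes are named for factors well above background on all arrays whose level spans 1 or more. No condition was replicated, so nothing was tested; samples were grouped by their labels. Alternatives changed the scaling, background model, probe, floor, size rule and source. Scripts were checked on simulated data. Python 3.11.15, numpy 2.4.6, pandas 2.3.3, R 4.3.3 and limma 3.58.1 were used.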

Additional observations from a re-analysis of the deposited data

Results flagged for a closer look

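The genotype difference of 3 factors lay on opposite sides of 0 before and after re-stimulation. With 1 array per condition this difference between states was not tested. Eomes differed by 1.61 before re-stimulation and by -0.10 after it, a change of -1.71 ± 0.29 (scanner error). The median SD between probes of the same gene was 0.10 for this measure, but it comes from other genes, as Eomes had 1 probe. Rora differed by 0.05 and -0.91, a change of -0.96 on the brighter probe and -0.96 on the other. Runx1 differed by -0.15 and 0.32, a change of 0.47 on the brighter probe, and the other probe gave a change of 0.01. The values near 0, those of Eomes after and of Rora and Runx1 before re-stimulation, lay within the scanner error of 0, so that their sign is not settled.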

How the results depend on the processing

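Of 396 values of single factors under the 9 alternatives in scaling, background, source, probe and floor, 314 stayed within the spread between probes of the reported value, 82 moved further, and 10 changed sign, 5 of them from a reported value within that spread of 0. Many of the 314 could not move. A change of probe left the 6 factors with 1 probe as they were. Leaving out the floor did the same for the 8 factors well above background on all 4 arrays. The deposited table holds the same scaled quantity. The 314 therefore do not measure how robust the values are. With normexp background correction, which adds an offset of 50, the factors past 2-fold before re-stimulation were 2, Gata3 and Eomes. The share of all genes past 2-fold was not computed under the changes of scaling, background or floor. With the processing used above it was 8.08% before re-stimulation and 9.02% after it. The factors past 2-fold after re-stimulation were 2 with no floor and no filter (Ahr and Foxp3). They were 3 with a 1.5-fold rule (Gata3, Rora and Ahr), against 20% of 12348 genes, and 0 with a 3-fold rule, against 3.6%. With re-stimulation in WT cells they were 8 with a 1.5-fold rule, against 49.2% of 12388 genes. At 2-fold they were 6 when scaled to the median or under quantile normalization, with Foxp3 added as lower. Scaled to Cd3e they were 7, with Gata3 (1.16) and Runx1 (1.08) added as higher. Under normexp they were 4, without Rora. The 5 that changed sign from within that spread of 0 were genotype differences, of Rora before re-stimulation and of Bcl6 after it. Rora was -0.015 when scaled to the median, -0.0072 under quantile normalization, -0.058 under normexp and -0.0061 on its dimmer probe. Bcl6 was 0.053 when scaled to Cd3e. The other 5 were Runx1 before re-stimulation, 0.025 on its dimmer probe, Runx3 with re-stimulation in WT cells, 0.047 when scaled to Cd3e, Gata3 with re-stimulation in KO cells, -0.093 when scaled to the median, and, for the genotype difference after minus before re-stimulation, Ahr with 0.31 under normexp and Runx3 with 0.045 on its dimmer probe. The same measure moved under normexp to -0.56 for Rora, -1.48 for Eomes and 0.32 for Runx1, and under quantile normalization to -0.48 for Ahr. Over probes it moved to 0.24 (mean) and 0.012 (dimmer) for Runx1 and -0.061 (mean) for Runx3. For Foxp3 both genotype differences are bounds, so this measure is neither a measured value nor a bound. It was 1.24 with the processing used above, 0.39 under normexp and 1.09 under quantile normalization. The cause of each was not tested. Foxp3 before re-stimulation was -0.48 under normexp and -3.62 with no floor, and Runx1 with re-stimulation in KO cells was 0.65 on its dimmer probe. Scaling to the median moved the median of all genes by -0.30 and -0.27 with re-stimulation in WT and KO cells, and scaling to Cd3e by 0.30 and 0.26; of the genes past 2-fold with re-stimulation in WT cells, 29.1% were then higher in the first case and 71.5% in the second, against 1630 of 3303 as reported. The number of arrays limits every value. No paired analysis was possible because each condition had 1 array and no test was made.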

Other observations

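Besides Runx1 and Runx3, the array held a probe for Runx2, a Runx factor known best from bone. Its level was -1.57 on the WT array and -0.03 on the KO array before re-stimulation, then 1.74 and 2.89 after it. The genotype differences were 1.54 and 1.15, and re-stimulation raised it by 3.30 in WT cells and by 2.92 in KO cells, past 2-fold in all 4 comparisons. Zeb2, a factor that acts with T-bet in terminal effector cells, was chosen after its values were seen. In WT cells before re-stimulation it was not well above background, and it had levels of -3.40 on the KO array at that point and of 2.42 and 2.64 after re-stimulation in WT and KO order. It was at least 154-fold higher with re-stimulation in WT cells and 65.5-fold higher in KO cells. Stat4, which carries the IL-12 signal in Th1 cells, was chosen in the same way, with genotype differences of -0.36 before re-stimulation and -1.46 after it.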
